A study of Mus musculus with 2 samples.

Results

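Sertoli cells are the somatic nurse cells of the seminiferous tubule. Genes that give these cells their identity and carry out their work were followed here on 2 oligonucleotide arrays of 17 day old mouse testis from 1 wild type and 1 UBR2-/- sample. The set had 9 named genes: the transcription factor genes Sox9, Wt1 and Gata4, the hormone receptor gene Fshr, the homeobox gene Rhox5, the signal gene Dhh, and Clu, Trf and Ctsl, which code for secreted or lysosomal proteins. A member was read through every probe set (a group of short probes for 1 transcript) that the platform annotation ties to that symbol alone. By this rule 8 of the 9 genes had a value, through 14 of 20380 probe sets with a single symbol, or 8 of 12393 genes. The gene without a value was Trf, since the 1 probe set that names it also names a second gene.

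Both groups were of mixed 129SV and C57BL background, and for each genotype the labels name 2 testes, taken from different animals of 1 litter. The sources used here do not state whether the RNA of these testes was combined, and the labels do not describe the mutant allele. UBR2-/- mice lack a ubiquitin ligase that recognises certain protein ends, and the comparison asks what its loss does to messenger RNA of the testis. With 1 array per genotype (n = 1) no difference has a replicate check, no test was possible, and every value describes these arrays only. The sample is whole testis, so more cells of a type and more RNA per cell cannot be told apart.

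Sertoli cells surround the germ cells and support them, and their number is largely set by the time the first spermatocytes appear. SOX9 directs gonadal precursor cells to the Sertoli fate, WT1 and GATA4 keep that fate, and follicle-stimulating hormone and testosterone then regulate the mature cell. Its products include the carrier protein transferrin (Trf), which supplies iron to germ cells behind the blood-testis barrier, the extracellular chaperone clusterin (Clu), the lysosomal protease cathepsin L (Ctsl), and desert hedgehog (Dhh), which acts on Leydig and peritubular cells outside the tubule.

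Signals are linear brightness values that had been scaled to a common level on both arrays (2% trimmed mean 150.04 on each). The lowest signals were raised to a floor, the 40th percentile of the array (24.4 in wild type, 24.7 in UBR2-/-), before a ratio was taken. Ratios are log2 of UBR2-/- over wild type. Each gene is given by its brightest probe set, and the 8091 genes whose mean signal reached the floor, called compared genes, had a median log2 ratio of 0.07 with quartiles of -0.17 and 0.28. Of all compared genes, 58.9% were above 0, 0.346% were at least 2-fold higher and 3.52% at least 2-fold lower. Differences between probe sets of the same gene gave an SD of the log2 ratio of 1 probe set of 0.27 among dim, 0.20 among intermediate and 0.16 among bright ones, which leaves out any error between arrays or animals. The signals of Ubr2 itself were 57.2 in wild type and 14.3 in UBR2-/-, at least 2.32-fold lower. The position of its probe set relative to the mutation is unknown, which limits this as a test of the labels.

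The 3 transcription factor genes were all somewhat brighter on the UBR2-/- array as deposited, none by 2-fold, and scaling on the spiked-in control transcripts turned Sox9 to -0.063. Sox9 (Entrez Gene 20682, chromosome 11), the switch gene of the male gonad, had signals of 89.5 in wild type and 109.4 in UBR2-/-. That is a 1.22-fold higher signal, a log2 ratio of 0.29, which is close to the SD of 0.27 for a dim probe set. Its other probe set was below the floor on both arrays, at 16.1 and 17.4, and carried no usable ratio. Gata4 (Entrez Gene 14463, chromosome 14), a zinc finger factor that activates many gonadal genes, had signals of 65.4 and 93.9, a 1.44-fold higher value on the UBR2-/- array (log2 ratio 0.52). The dimmer probe set of Gata4 lay below the floor in wild type (17.7) and above it in UBR2-/- (29.3), which makes it at least 1.20-fold higher, so both probe sets were on the same side. Wt1 (Entrez Gene 22431, chromosome 2), a zinc finger factor without which Sertoli cells lose their identity, had signals of 359.7 and 477.8, or 1.33-fold higher (log2 ratio 0.41). Wt1 was read by 1 bright probe set, of a kind whose probes can bind more than 1 transcript. On the deposited scale its ratio exceeded the SD of 0.16. Scaling on the spiked-in control transcripts left 0.057 for Wt1, within that SD, and 0.17 for Gata4, within the SD of 0.27.

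**Figure D1:**
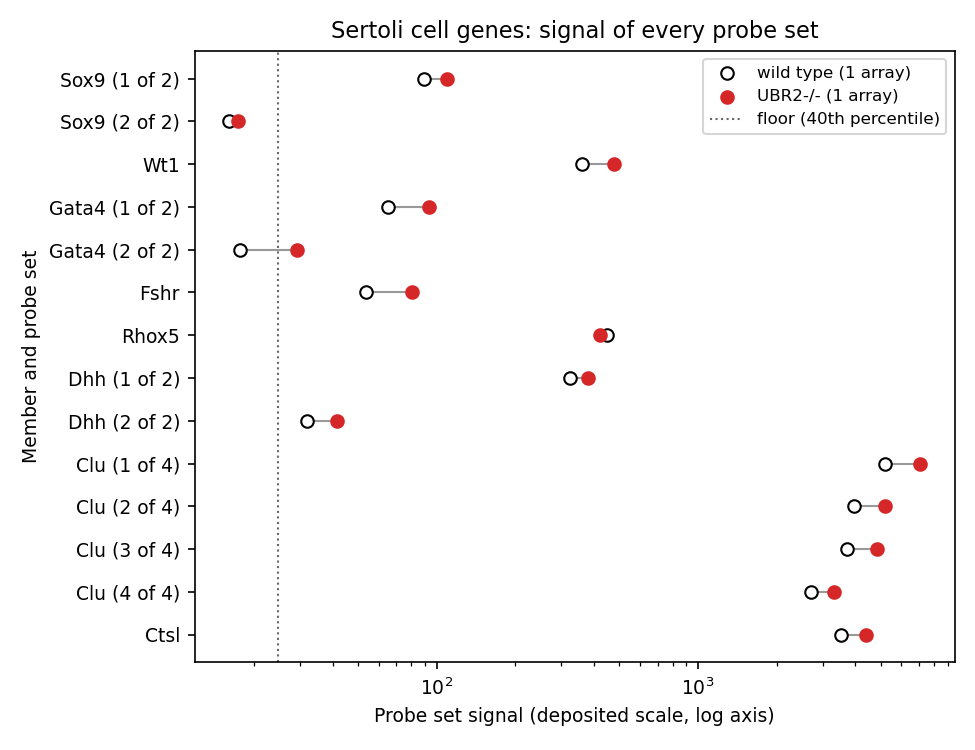
Signals of all 14 probe sets of the 8 genes, with the signal on a log axis, open circles for the wild type array and filled circles for the UBR2-/- array (1 array each); the dotted line is the UBR2-/- floor of 24.7. On the deposited scale the UBR2-/- circle is to the right in 13 probe sets and to the left in 1, that of Rhox5, and 12 probe sets lie above the floor on both arrays.

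Fshr had the highest ratio of the set. This gene (Entrez Gene 14309, chromosome 17) codes for the follicle-stimulating hormone receptor, and within the testis Sertoli cells make this receptor. Its signals were 53.7 in wild type and 80.4 in UBR2-/-, a log2 ratio of 0.58, above 95.7% of all compared genes. The gene was dim and had 1 probe set. The receptor works through cyclic AMP, and 11 of 15 listed genes of that route and related signalling could be compared. Of these, 10 stayed within 2-fold and 1 was beyond it, on the lower side (3.52% of all genes), and the median was 0.16. Gnas, the G protein subunit that couples the receptor to adenylate cyclase, had a log2 ratio of 0.34, and the adenylate cyclase genes Adcy3, Adcy6 and Adcy9 had 0.43, 0.20 and 0.10. Adcy3 was dim, with signals of 42.9 and 57.7, and its 4 probe sets ran from 0.02 to 0.72. The phosphodiesterase gene Pde4b, whose product breaks cyclic AMP down, had 0.36. Prkar1a, a regulatory subunit of protein kinase A, had -0.0062. The gene beyond 2-fold was Crem, a cyclic AMP responsive transcription factor that is abundant in germ cells, with signals of 100.9 and 47.1 (log2 ratio -1.10). It has 3 probe sets, the highest of them at 0.02, and it was not beyond 2-fold with the mean over probe sets, with a pseudocount of 10 or with a floor at the 60th percentile.

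On the deposited scale Rhox5 was the exception. This X-linked homeobox gene (Entrez Gene 18617) is switched on in Sertoli cells by androgen. Its signals were 447.5 in wild type and 423.2 in UBR2-/-, a log2 ratio of -0.08, which is smaller than the SD of 0.16 for a bright probe set. On that scale it was the 1 member below 0 and also below the median of all genes. Scaling on the spiked-in control transcripts put Sox9, Dhh and Ctsl below 0 as well. Quantile normalization put Clu below the median of all genes. X-linked genes as a group lay above autosomal genes: 274 of them had a median of 0.35 and a lower quartile of 0.21, against 0.06 for 7801 autosomal genes. Rhox5 lay 0.43 below the X-linked median, and 14 of the 274 X-linked genes (5.11%) had a lower ratio. Of the other X-linked genes in the Sertoli lists, the GATA factor gene Gata1 had 0.45 and the nuclear receptor gene Nr0b1 had 0.29, while the protease inhibitor gene Timp1 lay near Rhox5 at -0.0079. Of the rest of the Rhox gene cluster, 2 of 12 listed genes had a probe set, Rhox6 and Rhox9, both below the floor on both arrays.

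The starts of the genes at both ends of this range, and of Dhh, are shown because a Sertoli gene is often described by the factor sites close to its start. The sequences are those of RefSeq on the GRCm38.p6 build, the 250 bases just before the annotated start, 5′ to 3′ along the gene. Of the 8 genes, 4 matched the promoter table, and 3 are printed. Capitals mark matches on either strand to 9 motifs: the GATA site AGATAA with its variants ending in G or beginning with T, the SOX site AACAAT, the E-box CACGTG, the cyclic AMP core TGACG, the steroidogenic factor site AAGGTCA, the androgen receptor core AGAACA, the GC box GGGCGG, the TATA box TATAAA and the CCAAT box, which is named for its letters.
Fshr, chr17:89200676-89200925, minus strand: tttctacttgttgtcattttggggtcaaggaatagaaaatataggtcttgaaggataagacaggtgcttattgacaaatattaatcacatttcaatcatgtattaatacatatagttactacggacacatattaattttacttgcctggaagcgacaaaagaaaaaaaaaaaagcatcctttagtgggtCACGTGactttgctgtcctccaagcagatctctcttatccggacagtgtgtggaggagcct
Rhox5, chrX:37754358-37754607, plus strand: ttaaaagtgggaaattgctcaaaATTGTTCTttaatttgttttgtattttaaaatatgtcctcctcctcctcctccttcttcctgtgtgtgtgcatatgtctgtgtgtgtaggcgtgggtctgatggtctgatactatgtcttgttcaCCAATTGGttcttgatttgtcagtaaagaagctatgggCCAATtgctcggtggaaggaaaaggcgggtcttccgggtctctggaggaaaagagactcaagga
Dhh, chr15:98898541-98898790, minus strand: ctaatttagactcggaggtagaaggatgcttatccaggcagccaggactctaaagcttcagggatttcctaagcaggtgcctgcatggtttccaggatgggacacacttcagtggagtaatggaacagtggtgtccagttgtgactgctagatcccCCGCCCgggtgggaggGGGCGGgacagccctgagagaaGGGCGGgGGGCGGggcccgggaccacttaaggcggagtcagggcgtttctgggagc

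The Fshr window held 1 match, an E-box that begins 61 bases before the start. E-boxes of these letters were present in 6.02% of 32851 promoters of the same length, and this element of Fshr is known from earlier work as a site for basic helix-loop-helix factors. The Rhox5 window held a SOX site and an androgen receptor core that overlap, beginning 227 and 225 bases before the start, and 3 CCAAT boxes, 2 of which overlap on opposite strands. These motifs were present in 9.42%, 16.1% and 33.8% of the promoters. Rhox5 is known to have a proximal and a distal promoter, and which of them this window covers was not examined. The Dhh window was richer in G and C (59.6%, against 36.8% for Fshr) and held 4 GC boxes between 94 and 49 bases before the start, a motif of 32.7% of the promoters. A match is a run of letters and not a measured binding site.

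Dhh (Entrez Gene 13363, chromosome 15) is the hedgehog ligand that Sertoli cells send to the cells outside the tubule. Its brighter probe set had signals of 323.3 in wild type and 380.7 in UBR2-/-, 1.18-fold higher (log2 ratio 0.24). The dimmer probe set had 31.9 and 41.7, or 1.31-fold higher (log2 ratio 0.39). Both lay above the floor on both arrays and on the same side. Of 15 listed hedgehog pathway genes 7 could be compared, and 0 were beyond 2-fold higher (0.346% of all genes) or lower (3.52% of all genes). Their median was 0.39, and 5 of the 7 exceeded the median of all genes. Ptch1, the hedgehog receptor and a target of the pathway, had signals of 483.5 and 634.4 (log2 ratio 0.39). Smo, the transducer that the receptor holds in check, had the highest value with signals of 96.1 and 169.5 (log2 ratio 0.82, and 0.56 in its lowest probe set). Sufu, an inhibitor inside the cell, had 0.64 in its brightest probe set, and the co-receptor genes Gas1 and Boc had 0.54 and -0.25, with 0.28 in the highest probe set of Boc. Gli1, the transcription factor gene most often used as a readout of hedgehog activity, had signals of 38.9 and 39.7, a log2 ratio of 0.03. The other ligand genes Shh and Ihh were below the floor on both arrays.

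Clu and Ctsl were bright on both arrays. Clu (Entrez Gene 12759, chromosome 14) was read by 4 probe sets. The brightest had signals of 5186.1 in wild type and 7075.9 in UBR2-/-, 1.36-fold higher (log2 ratio 0.45). The other three had wild type signals of 3965.7, 3706.8 and 2695.3 and UBR2-/- signals of 5188, 4857.6 and 3301.5. Their log2 ratios were 0.39, 0.39 and 0.29, so all 4 probe sets were on the same side. All 4, and the probe set of Ctsl, are of kinds whose probes can bind more than 1 transcript. Ctsl (Entrez Gene 13039, chromosome 13), a protease needed for normal germ cell development, had signals of 3513.2 and 4388 in its 1 probe set, 1.25-fold higher (log2 ratio 0.32). The 116 compared genes with a mean signal of at least 2000, which include Clu and Ctsl, had a median of 0.22, against 0.06 for the 2485 genes between 300 and 2000. Removing that trend with signal by loess left 0.14 for Clu and 0.08 for Ctsl. Quantile normalization gave 0 for Clu, which had rank 2 from the top on both arrays and so kept 1 value, and 0.11 for Ctsl.

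Of 19 listed cathepsins and cathepsin inhibitors 12 could be compared, with a median of 0.25. Beyond 2-fold were 0 of the 12, against 0.346% of all genes higher and 3.52% lower. Ctsa and Ctsb, both lysosomal proteases, had log2 ratios of 0.49 and 0.37, and the inhibitor genes Cstb and Cst3 had 0.49 and 0.37. Ctse and Ctsk had -0.36 and -0.14. Of the listed clusterin receptors and related apolipoproteins only Apoe and Lrp8 could be compared, at 0.03 and -0.14. For the iron route that transferrin serves, 9 of 11 listed genes could be compared. Again 0 were beyond 2-fold, and 6 exceeded the median of all genes. All 9 were above 0 by their brightest probe set on the deposited scale, against 58.9% of all compared genes. Their median was 0.20. The transferrin receptor gene Tfrc had signals of 474.6 and 496.9 (log2 ratio 0.07), its relative Tfr2 had 0.20, and the iron exporter gene Slc40a1 and the hemochromatosis gene Hfe had 0.38 and 0.34 in their brightest probe sets. The other probe set of Hfe lay on the opposite side at -0.85. Cp, Aco1, Tfrc and Tfr2 also had a probe set below 0, at -0.28, -0.15, -0.07 and -0.017. The lowest were Aco1, the iron-sensing aconitase, at 0.0029 and Cp, a ferroxidase, at 0.05.

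**Figure D2:**
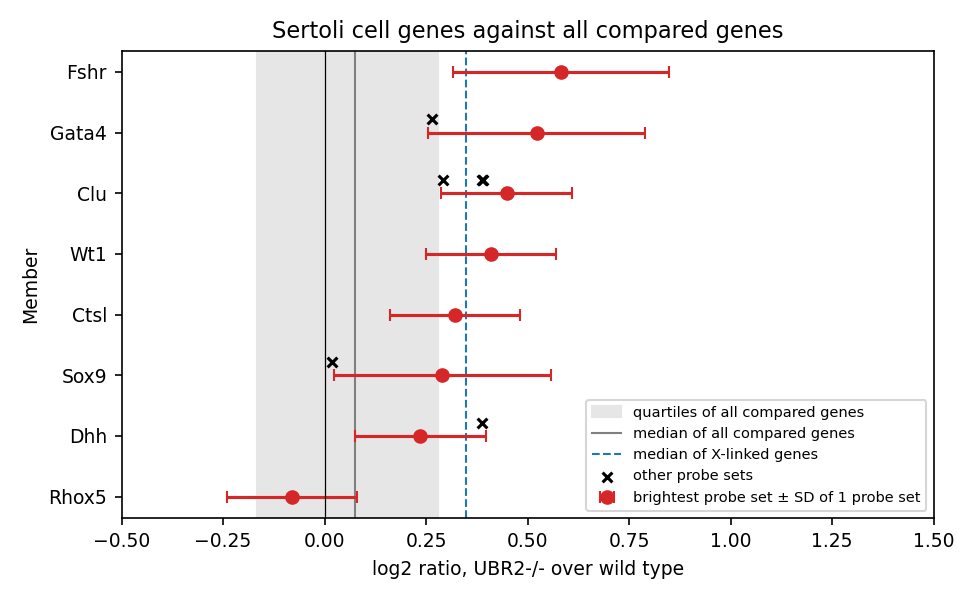
Log2 ratio of UBR2-/- over wild type for the 8 genes, ordered by their brightest probe set (circles, with whiskers of 1 SD of a probe set of that brightness, which hold no error between arrays) and with other probe sets as crosses; the grey band and line are the quartiles and median of 8091 compared genes, and the dashed line is the median of 274 X-linked genes. On the deposited scale the circles run from -0.08 for Rhox5 to 0.58 for Fshr, and 6 of the 8 lie right of the grey band.

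By their brightest probe sets all 8 genes lay above the floor on both arrays, though the floor is a chosen level and no detection call. As a set on the deposited scale, 7 of the 8 genes were above 0, where 58.9% of all compared genes were, and the same 7 were above the median of all genes. At least 2-fold higher were 0 of 8 (0.346% of all genes) and at least 2-fold lower 0 of 8 (3.52% of all genes). With a threshold of 1.5-fold these counts were also 0 of 8 higher (4.25% of all genes) and 0 of 8 lower (7.71% of all genes), with Fshr just inside it. The median log2 ratio on that scale was 0.37, or 1.29-fold, against 0.07 for all genes, and 6 of 8 were above the upper quartile of 0.28. Clu and Ctsl are among these 6, and quantile normalization put them at -0.069 and 0.036 from the median of all genes. From high to low the order was Fshr, Gata4, Clu, Wt1, Ctsl, Sox9, Dhh and Rhox5. Of the 7 steps between neighbours 6 were at most 0.089, smaller than the SD of a difference of 2 probe sets, so these neighbours do not differ beyond that spread. The step from Dhh to Rhox5 was 0.32, above its SD of 0.23. Scaling on the bacterial and phage control transcripts in place of the deposited scaling lowers the ratios of genes above the floor by 0.35, which leaves 4 of 8 above 0 and 7 of 8 above the median of all genes, and quantile normalization leaves 6 of 8 above that median, with Clu as the gene that crosses it.

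Further Sertoli genes, 46 in 3 lists, gave 38 compared genes. Of these, 37 stayed within 2-fold, 1 was lower by more than that (3.52% of all genes) and 0 higher (0.346% of all genes). The median was 0.22, and 30 of the 38 exceeded the median of all genes. The 11 transcription factors and cofactors had a median of 0.19. Gata1 was highest at 0.45 and Nr5a1, the steroidogenic factor gene, followed at 0.38. Dmrt1, which keeps the male fate, had 0.26, with signals of 833.7 and 999. Etv5, a factor in the niche of spermatogonial stem cells, was lowest at -0.07, followed by Zfpm1, a GATA cofactor, at 0.04.

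The 18 hormones, secreted and niche factors had a median of 0.24. Amh, the hormone of immature Sertoli cells, was the 1 gene beyond 2-fold, at signals of 59.7 and 25.5 (log2 ratio -1.23), the second just above the floor of 24.7. The inhibin subunit gene Inha had signals of 1456 and 1684 (0.21) and Shbg, the androgen-binding protein gene, 245.7 and 319 (0.38). Gdnf, a growth factor for stem spermatogonia, lay under the floor in wild type and was at least 1.59-fold higher in UBR2-/-, and Ptgds, a prostaglandin synthase gene, had 0.54. After Amh the lowest was the protease inhibitor gene Serpina5 at -0.13. The 9 junction and cytoskeleton genes had a median of 0.21. Cldn11, the main claudin of the blood-testis barrier, had signals of 713 and 947.2 (0.41). The highest were Cldn5 at 0.94, which endothelial cells also make, and Ocln at 0.51, both tight junction genes. Cdh2, the N-cadherin gene, was lowest at -0.36, followed by Tubb3, a tubulin gene, at 0.05.

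**Figure D3:**
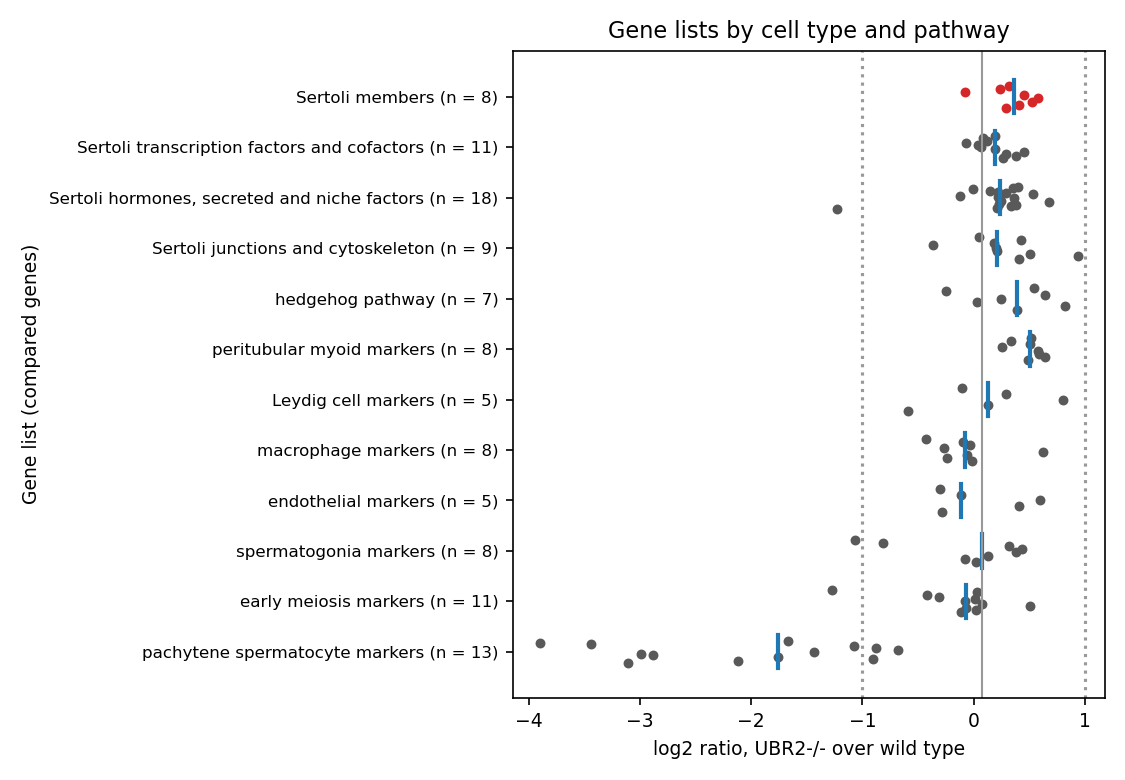
Log2 ratio of UBR2-/- over wild type for each compared gene of the Sertoli set (red) and of other lists (grey), with a blue bar at each list's median, a grey line at the median of all genes and dotted lines at 2-fold. The Sertoli set has its median at 0.37, peritubular myoid markers have theirs at 0.51, and 10 of 13 pachytene markers lie left of the 2-fold line.

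Markers of other cells in the testis were compared as well, and their part in the Sertoli values was not tested. Pachytene spermatocyte markers were far lower on the UBR2-/- array: 10 of 13 compared genes (Ldhc, Pgk2, Meig1, Piwil1, Spag6l, Clgn, Ccna1, Adam3, Crisp2 and Zpbp) were at least 2-fold lower and 0 higher, with a median of -1.76, and the signals of all 14 summed to 10574.7 in wild type and 2542.1 in UBR2-/-. Of all genes, 3.52% were at least 2-fold lower. Pgk2, Ccna1 and Adam3 were below the floor in UBR2-/-, so the size of their drop is a lower bound. The pachytene median was -2.48 and -1.51 with floors at the 25th and 60th percentiles, and -2.11 with spike-in scaling. Acrv1 was below the floor on both arrays. Early meiosis markers had a median of -0.06 over 11 genes, with 1 at least 2-fold lower (Spo11, read by 1 probe set), and summed signals of 12932.8 and 12498.6. Spermatogonia markers had a median of 0.08 over 8 genes, with 1 at least 2-fold lower (Id4, not so with the mean over probe sets), and summed signals of 4680.9 and 4674.7. Among somatic cells, peritubular myoid markers all exceeded both 0 and the median of all genes on the deposited scale (8 of 8), with a median of 0.51 and sums of 2610.7 and 3750.9. The other somatic lists had lower medians, 0.12 over 5 Leydig, -0.08 over 8 macrophage and -0.12 over 5 endothelial genes, with summed signals of 993.8 and 1013.8, 937.1 and 873.8, and 168.3 and 176.6. The summed signal of the 8 Sertoli genes was 10038.4 in wild type and 13029.3 in UBR2-/-, a ratio of 1.30, a sum in which bright probe sets weigh most, and that of the other Sertoli genes had a ratio of 1.20. Of ordinary control genes 7 could be compared, with a median of 0.18, from -0.47 for Tbp to 0.38 for Eef1a1, and with 0.18 for Actb and 0.30 for Hprt. The 3' to 5' ratio of Actb, a measure of RNA integrity, was 1.75 in wild type and 1.64 in UBR2-/-, and that of Gapdh was 0.796 and 0.822.

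**Figure D4:**
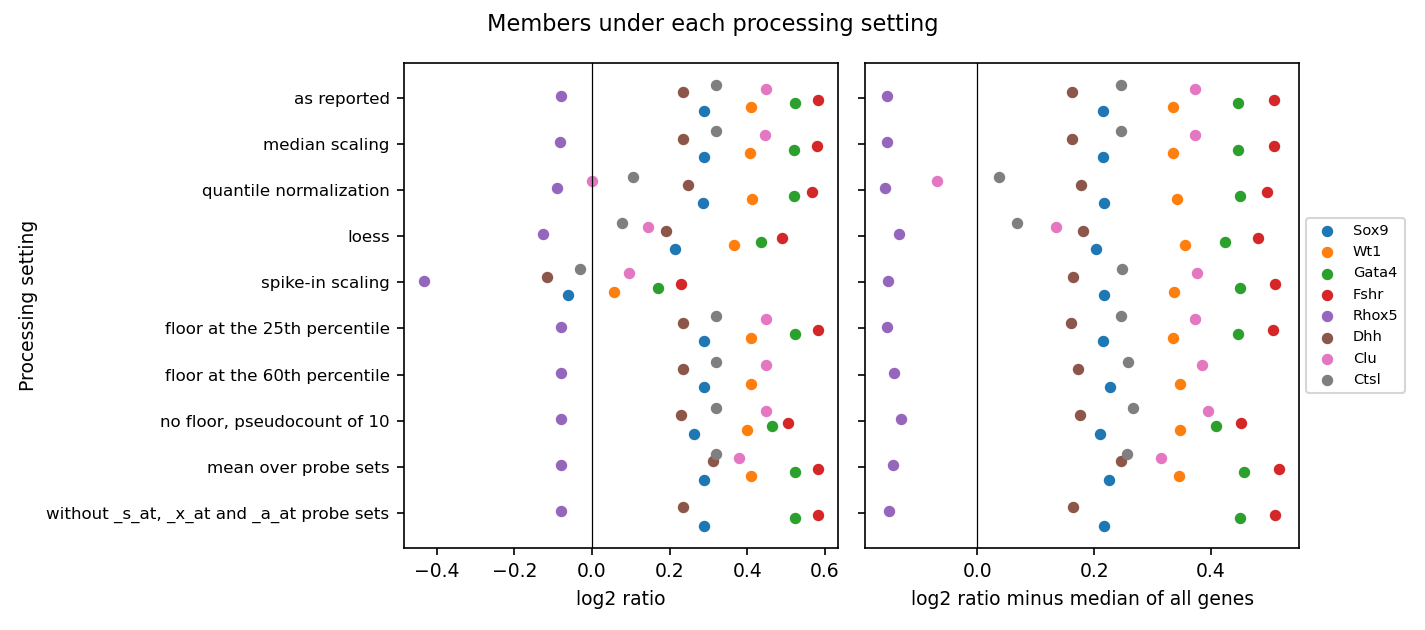
Log2 ratio of the 8 genes (left) and the same minus the median of all compared genes (right) under the reported processing and 9 alternatives. In the right panel Fshr stays between 0.45 and 0.52 and Rhox5 between -0.16 and -0.13, while Clu runs from -0.07 to 0.39; 6 genes remain once the floor is raised to the 60th percentile and 5 without probe sets that can bind several transcripts.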

How the data were processed

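The deposited file holds linear probe set intensity values (signals) of 2 Affymetrix mouse genome 430A 2.0 arrays, made by the authors with MAS5, per the submitters' processing notes. The MAS5 version and settings and the genome build stay unnamed in the sources used here. Of 22626 probe sets that are no controls, 20380 had 1 gene symbol in the platform annotation, 691 several and 1555 none. Entrez identifiers matched 20351 of them to the GRCm38.p6 RefSeq table, used for names and chromosomes. Floors, log2 ratios, counts at 2-fold and medians were computed in Python 3.11.15 with pandas 2.3.3 and statsmodels 0.14.6, and a gene was compared if the mean signal of its brightest probe set reached the mean floor. The calculation was tested on simulated data that held no trend with signal and no offset between arrays, so that test does not cover these. The 2 arrays limit the precision, and no p-value is given.

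The members and lists were chosen with earlier results of these data known. Of each list, the text names the first 2 compared genes, every gene beyond 2-fold and the 2 at either end of the range; of the marker lists for other cells it names those beyond 2-fold, and of the control genes the first 2 and the range only, and Adcy6, Adcy9, Cst3, Gas1, Shbg, Nr0b1 and Timp1 were added for their role. Alternatives were median scaling, quantile normalization, loess (span 0.3), spike-in scaling on 42 control probe sets, floors at the 25th and 60th percentiles, a pseudocount of 10 without floor, averaging a gene's probe sets, dropping those with names ending in _s_at, _x_at or _a_at, and thresholds of 1.5-fold and 3-fold.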

Additional observations from a re-analysis of the deposited data

How the results depend on the processing

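No member was beyond 2-fold under any alternative run, at thresholds of 1.5-fold and 3-fold included. Spike-in scaling took the median of all genes from 0.07 to -0.28 and gave log2 ratios of -0.063 for Sox9, 0.057 for Wt1, 0.17 for Gata4, 0.23 for Fshr, 0.10 for Clu, -0.43 for Rhox5, -0.12 for Dhh and -0.031 for Ctsl, with a median of 0.013 for the members and of -0.16, -0.11 and -0.14 for the Sertoli transcription factors, secreted factors and junction genes. Quantile normalization gave 0 for Clu, 0.11 for Ctsl and a members' median of 0.27. Loess gave 0.14, 0.077 and 0.20, and 0.10 and 0.13 for the Sertoli transcription factors and secreted factors. Without probe sets that can bind several transcripts, Wt1, Clu and Ctsl had no value and the median of the junction genes was 0.41, over 7 genes. Over all genes, 28 were at least 2-fold higher and 285 lower. This became 17 higher with loess, 7 higher and 528 lower with spike-in scaling, 132 higher with the floor at the 25th percentile, 8 higher and 152 lower with it at the 60th percentile, and 56 higher with a pseudocount. At 1.5-fold 344 were higher and 624 lower, and at 3-fold 3 and 121. Amh was no longer counted as 2-fold lower with the floor at the 60th percentile, where it was too dim to be compared, or with a pseudocount. The single 2-fold lower calls were lost for Crem with that floor, a pseudocount or the mean over probe sets, for Id4 with the mean over probe sets, and for Spo11 without probe sets that can bind several transcripts. The spermatogonia median of 0.08 turned to -0.05 with loess, -0.018 with quantile normalization and -0.27 with spike-in scaling, the Leydig median of 0.12 to -0.23 with spike-in scaling, and those of -0.12 for endothelial and -0.06 for early meiosis markers to 0.14 and 0.019 without such probe sets. Spike-in scaling also took the medians of iron transport to -0.15, cathepsins to -0.10 and the cyclic AMP route to -0.19. With it the hedgehog median was 0.04 and that of the control genes -0.17. Quantile normalization gave 0 for the control genes. The cause of these changes was not tested. The dim genes Sox9, Gata4 and Fshr lie near the floor, which limits their ratios. No paired analysis was possible because each genotype has 1 array.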
